A study of Xenopus laevis with 12 samples.

Results

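Secreted and membrane proteins enter the endoplasmic reticulum (ER) through the Sec61 channel, are folded there by chaperones and disulfide isomerases, and are pulled back out and degraded when they fail to fold. The genes of this machinery were followed in Xenopus laevis embryos in which fam46a had been targeted. They were taken by gene name, from a list of names drawn up with earlier results of these data known, as every probe set annotated to a pdia, derl, herpud, edem, spcs, sec61, sec62, sec63 or numbered ssr gene, to dnajb9, dnajb11 or dnajc3, or to hspa5, hsp90b1, calr, canx, xbp1, atf4, atf6, ern1, sel1l, syvn1, selenos, sdf2l1 or hyou1. The rule found 68 of the 32539 probe sets tested. They stand for 54 gene symbols, or 38 genes once the suffixes .L and .S are dropped, for the 2 copies that most genes of this species carry, 1 per subgenome. Both copies were present for 16 genes, and 10 symbols had more than 1 probe set, numbered here within the symbol. A further 4 probe sets annotated to several symbols were left out, and ern1, which codes for the sensor IRE1, is not analysed here because no probe set carried that name alone.

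In the ER, BiP (hspa5) and GRP94 (hsp90b1) bind unfolded chains, calnexin and calreticulin bind those with sugars attached, and the pdia enzymes form and rearrange disulfide bonds. The TRAP complex, built from the ssr proteins, sits beside the Sec61 channel, and signal peptidase, of which the spcs proteins are subunits, removes the signal sequence. In ER-associated degradation the ubiquitin ligase HRD1 (syvn1) and its adaptor SEL1L work with the derlins, HERP (herpud1) and selenoprotein S (selenos), which brings the ATPase VCP to the membrane. In vertebrates many of these genes are targets of the unfolded protein response, which runs through the sensors IRE1, PERK and ATF6 and the transcription factors XBP1 and ATF4.

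The data were 12 arrays of whole embryos, with 2 biological replicates in each of 6 groups. The groups were embryos given the morpholino antisense oligonucleotide Fam46a-MO1 (MO1, 10 ng per cell), embryos given Fam46a-MO2 and Fam46a-MO3 in 1 mixture (MO2+MO3, 7 ng of each per cell), and embryos given the control oligonucleotide CoMO (10 ng per cell), each taken at stage 8, in the blastula, and at stage 10.5, early in gastrulation. Every embryo came from in vitro fertilization, was kept at 22 °C and received its oligonucleotide at the animal pole of each of its 4 cells, so CoMO embryos were injected too and no group was free of oligonucleotide. The labels give neither strain nor the number of embryos per array, nor which step of expression each oligonucleotide blocks, and the oligonucleotide load of MO2+MO3 embryos was not that of the others.

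The deposited log2 values were centred, so that each probe set has a median of 0 over the 6 arrays of a stage. A value therefore tells how an array differs from the others of its stage, and carries no level and no difference between the stages. Differences are log2 differences between group means over 2 arrays each. They were tested over all probe sets with limma, without and with a block for the replicate number of each stage, and an adjusted p under 0.05 was the threshold for a call. Same-numbered arrays of a stage deviated together, and the median residual standard deviation was 0.175 without the block and 0.104 with it. Standard errors after ± are those of the fit with the block. Every call among the 68 probe sets needed the block, and so did most other calls. Both reagents were set against the same CoMO arrays, so their 2 comparisons with CoMO are not independent of each other. In whole embryos a smaller number of cells of one type and less RNA per cell cannot be told apart.

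The targeted gene, listed as tent5a.L, has 2 probe sets. Neither was called in MO1 or MO2+MO3, at stage 8 or stage 10.5, in either fit. On probe set 1 its stage 10.5 values were -0.13 and -0.12 in MO1, 0.38 and 0.12 in MO2+MO3, and 0.14 and -0.43 in CoMO embryos. On probe set 2 they were -0.13 and -0.02 in MO1, 0.13 and 0.02 in MO2+MO3, and 0.09 and -0.04 in CoMO embryos. Each reagent overlapped CoMO on both. How far the gene was depleted cannot be told from these values. Tissue markers differed from CoMO at stage 10.5, outside the epidermis almost only in the fit with the block. With the block, markers of the epidermis were lower on 15 of 20 probe sets in MO1 and on 14 of 20 in MO2+MO3 (median log2 difference -0.59 and -0.68). For mesoderm the counts were 9 and 7 of 15 (medians -0.63 and -0.52), for endoderm 6 and 4 of 19 (-0.36 and -0.27), for the neural plate 4 and 3 of 13 (-0.31 and 0.11), and for the organizer 5 and 3 of 16 (-0.39 and -0.16), where 7.75% and 7.77% of all probe sets were lower. These counts are of probe sets, and a gene can have several. The lower neural plate calls were on sox2.L and foxd4l1.1.S in MO1 and on sox2.L alone in MO2+MO3. In MO1 2 marker probe sets were higher with the block, where 8.48% of all probe sets were: foxd4l1.2.L of the neural plate list at 1.43 (adjusted p = 0.0029 without the block and 1.9e-04 with it) and 1 probe set of dlx3.L of the epidermis list at 0.40 (0.26 and 0.034). In MO2+MO3 0 were higher. At stage 8 a single mesoderm probe set was called, lower in MO2+MO3 and only with the block. The part of these tissue markers in the differences below was not tested.

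At stage 10.5 the fit without the block called 0 of the 68 member probe sets in MO1 and 0 in MO2+MO3, where 0.916% and 0.907% of all probe sets were called. The smallest adjusted p was 0.2 in MO1 and 0.068 in MO2+MO3. In the same limma fit 7 and 9 members (10.3% and 13.2%) had an unadjusted p under 0.05. Of all probe sets, 10.9% and 11.4% did. With the replicate block, 11 members were called in MO1, which is 16.2% of them, against 16.2% of all probe sets. In MO2+MO3 16 members were called, or 23.5%, against 16.8% of all probe sets. The direction was uneven. In MO1, 9 members (13.2%) were lower against 7.75% of all probe sets, and 2 (2.94%) were higher against 8.48%. In MO2+MO3, 13 members (19.1%) were lower against 7.77% of all probe sets, and 3 (4.41%) were higher against 9.02%. The names were drawn up with earlier results of these data known, so these shares and those below are no independent test of the set. Members listed at the outset were among the lower calls, but they too were chosen with those earlier results known, so this is no independent support. In MO1 they were herpud1.L, herpud1.S, ssr3.S and pdia4.L. In MO2+MO3 they were herpud1.L, herpud1.S, derl1.L, derl2.L, ssr3.S and selenos.S.

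Most members lay close to their CoMO value. The median log2 difference over the 68 was -0.08 in MO1 and -0.09 in MO2+MO3, against 0.02 and 0.00 over all probe sets. Negative differences made up 48 of the 68 in MO1 and 41 of the 68 in MO2+MO3, or 70.6% and 60.3%, against 46.4% and 49.4% of all probe sets. Fewer members than probe sets at large lay near the level of the negative controls, 13.2% against 38.3% at stage 10.5. Without such dim probe sets, a setting paired with the block after the data were seen, 59 members remained. Of these, 20.3% were called in MO1 against 28.5% of the 20084 probe sets left, and 33.9% in MO2+MO3 against 29.1%. Lower calls alone were 15.3% against 13.1% in MO1 and 28.8% against 13.6% in MO2+MO3. The count over the 68 also rested on single arrays. With the block it fell in MO1 and in MO2+MO3 whichever 1 of the 4 arrays compared was left out. The share of all probe sets called in these smaller fits is not given here, so the fall cannot be read as particular to the members.

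**Figure D1:**
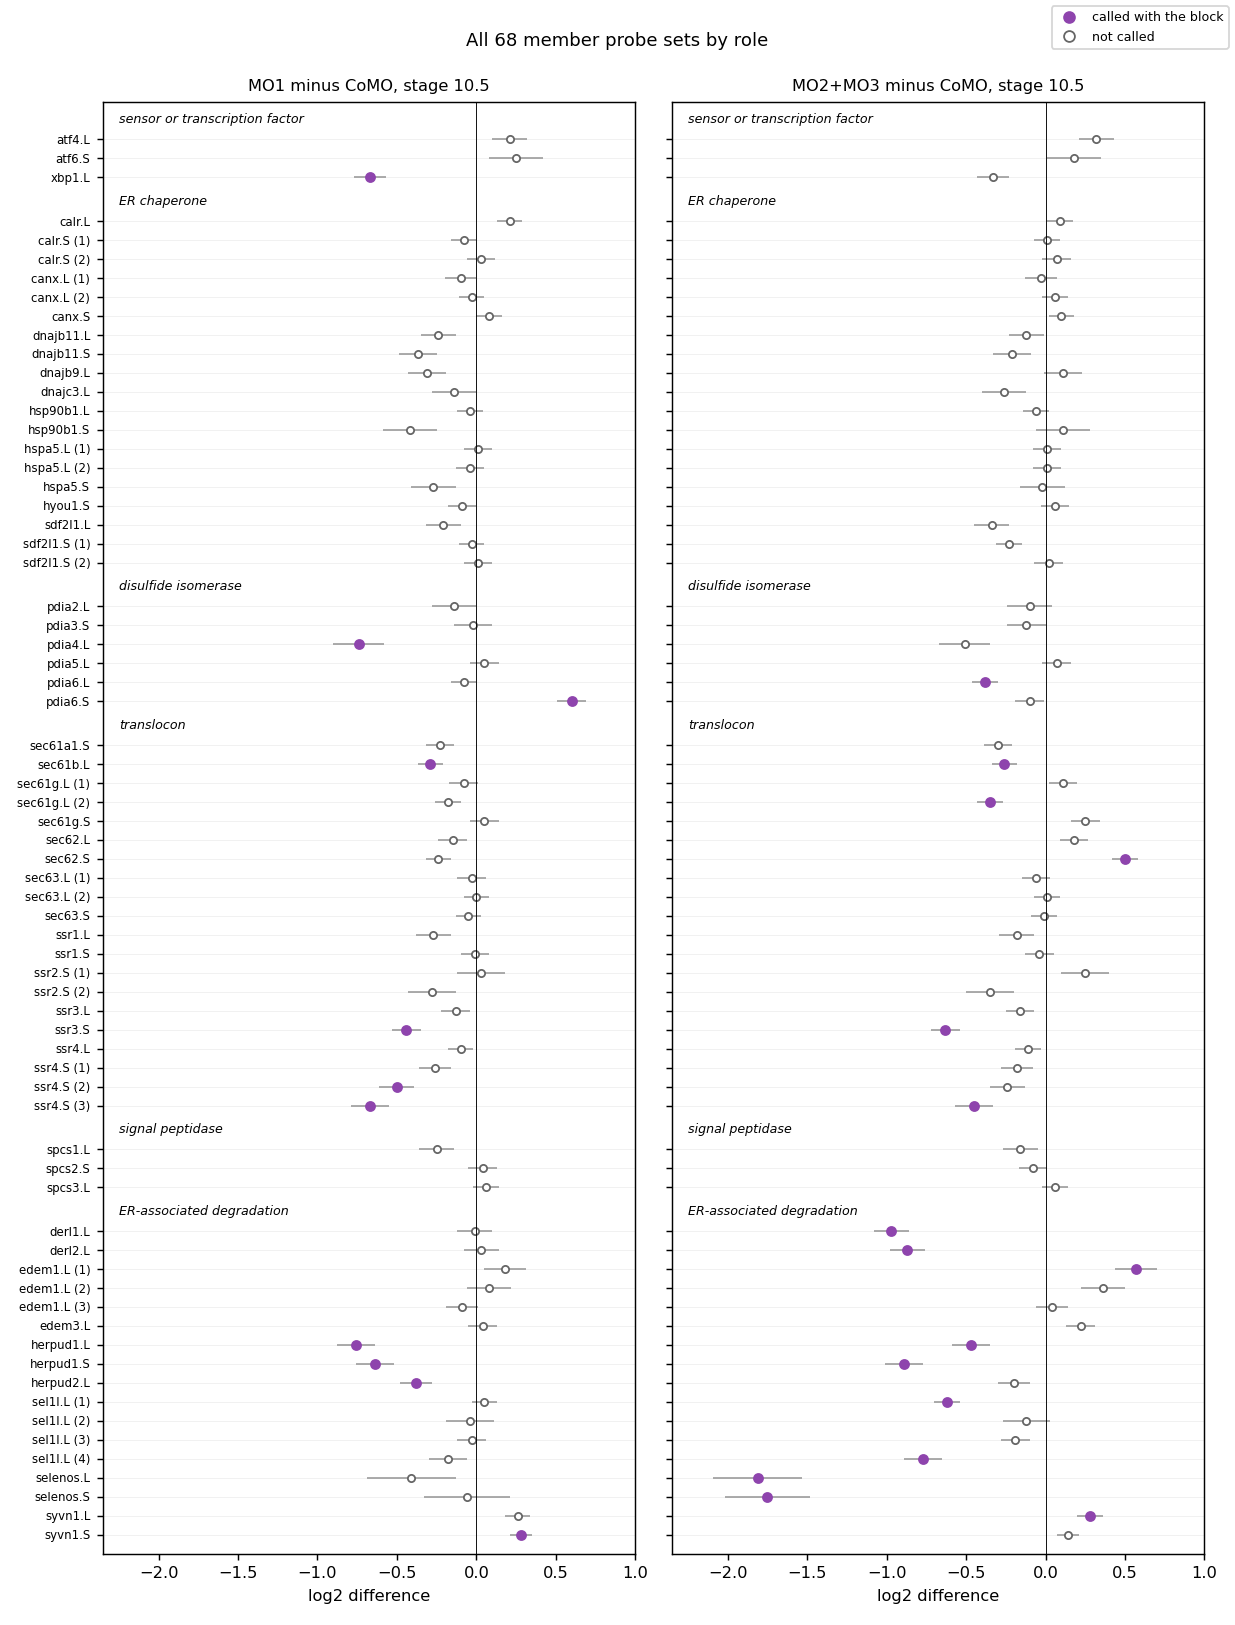
Log2 difference from CoMO at stage 10.5 for each of the 68 member probe sets, MO1 on the left and MO2+MO3 on the right, with horizontal bars for 1 standard error of the fit with the block; a number in brackets tells probe sets of 1 symbol apart. The degradation genes reach -0.76 in MO1 and -1.81 in MO2+MO3, and the 19 chaperone probe sets lie between -0.42 and 0.21 in MO1 and between -0.34 and 0.11 in MO2+MO3, with none called.

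**Figure D2:**
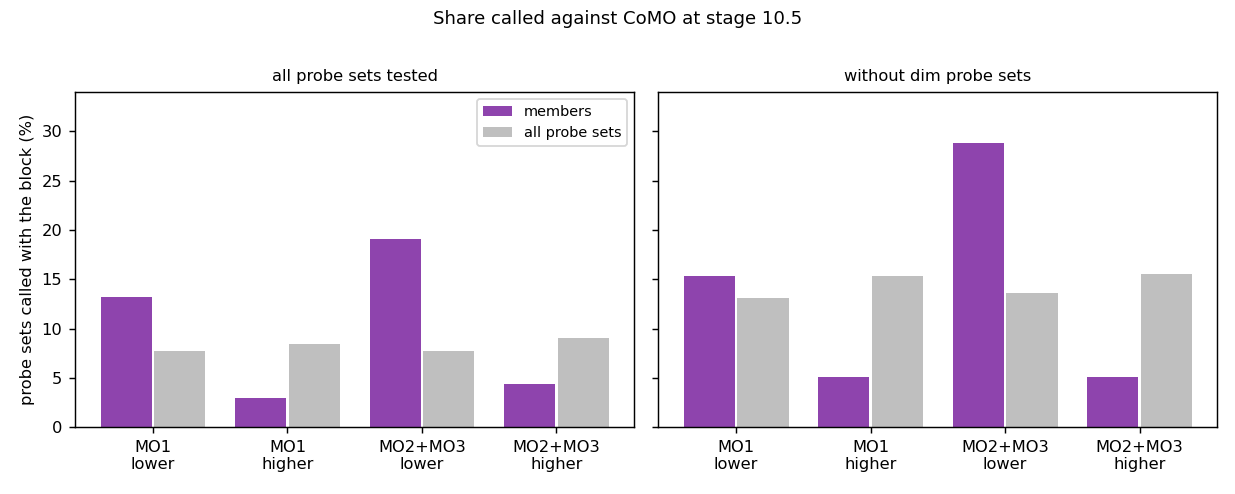
Share of the member probe sets (purple) and of all probe sets (grey) called lower or higher than CoMO at stage 10.5 with the block, in percent, for all probe sets on the left and without dim probe sets on the right. Lower calls in MO2+MO3 stand at 19.1% of the members against 7.77% of all probe sets, and at 28.8% against 13.6% without dim probe sets. The members were picked with earlier results of these data known, so the shares are no independent test.

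By role, most called members belonged to degradation and translocation, which hold 17 and 20 of the 68 probe sets. Of all probe sets, 7.75% were called lower and 8.48% higher in MO1, and 7.77% lower and 9.02% higher in MO2+MO3. Of 17 probe sets for ER-associated degradation, 3 were called lower and 1 higher in MO1, and 8 lower and 2 higher in MO2+MO3. The 8 were selenos.L, selenos.S, herpud1.L, herpud1.S, derl1.L, derl2.L and probe sets 1 and 4 of sel1l.L. They are not 8 separate genes, and a probe set can bind both copies. Of 20 translocon probe sets, 4 were called lower and 0 higher in MO1, and 4 lower and 1 higher in MO2+MO3. Of 6 disulfide isomerase probe sets, 1 was called lower and 1 higher in MO1, and 1 lower in MO2+MO3. Of the 3 probe sets for sensors and transcription factors, 1 was called lower in MO1 and 0 in MO2+MO3, and of the 19 chaperone and 3 signal peptidase probe sets 0 were called for MO1 or MO2+MO3. Over both reagents, 5 probe sets were called in both, 6 in MO1 alone, 11 in MO2+MO3 alone and 46 in neither, and 34 symbols had no called probe set. All 5 called in both were lower in both: herpud1.L, herpud1.S, ssr3.S, sec61b.L and probe set 3 of ssr4.S. That is 5 of the 68 members, a share no larger than that of all probe sets, over comparisons that share CoMO arrays. Of all probe sets, 8.28% were called in both, a share not split by direction here. In all, 16.2% of them were called in MO1 and 16.8% in MO2+MO3. The share called in 1 reagent alone was not taken. The counts in 1 reagent alone are therefore not read as particular to the members.

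Among the degradation genes, selenos had the widest difference. selenos.S (gene 447390), which codes for the membrane anchor of VCP, had stage 10.5 values of 0.44 and -0.16 in MO1 and -1.60 and -1.49 in MO2+MO3, against 0.24 and 0.16 in CoMO embryos. Both MO2+MO3 arrays lay below all 4 others, and the MO1 and CoMO arrays overlapped. The difference from CoMO was -1.75 ± 0.27 in MO2+MO3 (adjusted p = 0.068 without the block and 0.004 with it), a 3.36-fold lower signal, and -0.06 ± 0.27 in MO1 (1 and 0.92).

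selenos.L (gene 447014), the other copy, showed the same order of the groups on top of a much wider spread between replicates. Its stage 10.5 values in replicates 1 and 2 were -0.75 and 2.17 in MO1 and -1.38 and 0.00 in MO2+MO3, against 0.00 and 2.24 in CoMO embryos. In each group replicate 2 exceeded replicate 1, so the groups overlapped, yet within each replicate number MO2+MO3 was the lowest. The difference from CoMO was -1.81 ± 0.28 in MO2+MO3, with adjusted p = 0.85 without the block and 0.0038 with it, and both calls of selenos in MO2+MO3 held in all 8 alternatives run with the block. In MO1 it was -0.41 ± 0.28 (1 and 0.39). At stage 8 the replicates were as far apart but the other way round, with 2.34 and -0.74 in MO1 and 0.74 and -2.42 in MO2+MO3, against 2.17 and -1.12 in CoMO embryos.

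The derlins, membrane proteins of the retrotranslocation complex, split by reagent. derl1.L (gene 444811) had stage 10.5 values of 0.21 and -0.02 in MO1 and -0.63 and -1.09 in MO2+MO3, against 0.20 and 0.02 in CoMO embryos. derl2.L (gene 100381029) had 0.02 and 0.05 in MO1 and -0.83 and -0.91 in MO2+MO3, against -0.01 and 0.01 in CoMO embryos. For both genes the MO2+MO3 arrays lay apart from the other 4, and the MO1 arrays lay among or beside the CoMO arrays. The MO2+MO3 difference was -0.97 ± 0.11 for derl1.L (adjusted p = 0.076 without the block and 0.0012 with it) and -0.87 ± 0.11 for derl2.L (0.081 and 0.0015), and both calls held in all 8 alternatives run with the block. In MO1 the differences were -0.01 ± 0.11 for derl1.L and 0.03 ± 0.11 for derl2.L, with 95% intervals from the fit with the block of -0.27 to 0.24 and -0.21 to 0.28.

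SEL1L, the adaptor that carries substrates to HRD1, is measured by 4 probe sets of sel1l.L (gene 735099), and they differed. On probe set 1 the stage 10.5 values were 0.69 and -0.08 in MO1 and 0.06 and -0.80 in MO2+MO3, against 0.57 and -0.06 in CoMO embryos. Replicate 1 was the higher in every group, so the groups overlapped while MO2+MO3 was lowest within each replicate number. Probe sets 1 and 4 were called lower with the block for MO2+MO3, in all 8 alternatives too, at -0.62 ± 0.08 (adjusted p = 0.59 without the block and 0.0023 with it) and -0.77 ± 0.12 (0.33 and 0.0037). Probe sets 2 and 3 had -0.12 ± 0.15 and -0.19 ± 0.09 and were not called, and probe set 2 lay near the level of the negative controls. In MO1 the 4 differences ran from -0.18 to 0.05, with 0 called. The ligase HRD1 itself was on the other side of 0: syvn1.S (gene 494996) differed from CoMO by 0.28 ± 0.07 in MO1 (0.65 without the block and 0.036 with it) and 0.14 ± 0.07 in MO2+MO3 (0.92 and 0.27). syvn1.L (gene 431869) differed by 0.26 ± 0.08 in MO1 (0.65 and 0.056, called with the block without dim probe sets or with means over the probe sets of a gene) and 0.28 ± 0.08 in MO2+MO3 (0.57 and 0.039). These differences were small, and each call of syvn1 was lost when any 1 of the 4 arrays it compares was left out (adjusted p up to 0.18 in MO1 and 0.22 in MO2+MO3).

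**Figure D3:**
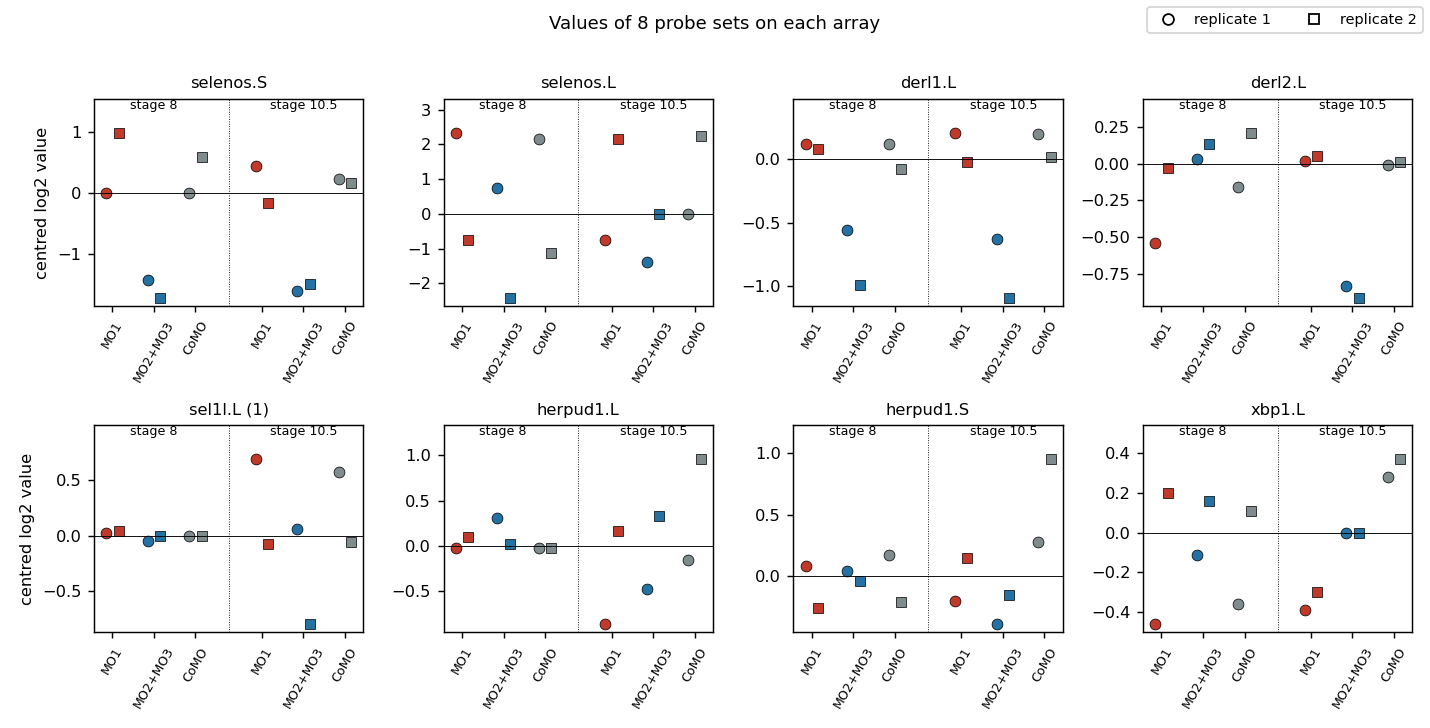
Centred log2 value on each array for 8 probe sets, at stage 8 (left of the dotted line) and stage 10.5 (right of it), in MO1, MO2+MO3 and CoMO embryos; circles are replicate 1 and squares replicate 2. The MO2+MO3 arrays of selenos.S and derl1.L lie below the other 4 at both stages, those of derl2.L at stage 10.5, and the CoMO arrays of xbp1.L lie above the other 4 at stage 10.5.

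HERP (herpud1), which helps assemble the HRD1 complex, was lower in both reagents on both copies. herpud1.L (gene 398629) had stage 10.5 values of -0.87 and 0.16 in MO1 and -0.48 and 0.33 in MO2+MO3, against -0.16 and 0.96 in CoMO embryos. herpud1.S (gene 394410) had -0.20 and 0.15 in MO1 and -0.39 and -0.15 in MO2+MO3, against 0.28 and 0.95 in CoMO embryos. The CoMO array was the highest within each replicate number for both copies, and for herpud1.S both CoMO arrays lay above all 4 others. In MO1 the differences were -0.76 ± 0.12 for herpud1.L (adjusted p = 0.65 without the block and 0.004 with it) and -0.64 ± 0.12 for herpud1.S (0.37 and 0.0085). In MO2+MO3 they were -0.47 ± 0.12 for herpud1.L (0.85 and 0.028) and -0.89 ± 0.12 for herpud1.S (0.18 and 0.0022). Of these 4 calls, herpud1.L in MO1 and herpud1.S in MO2+MO3 held in all 8 alternatives run with the block. That of herpud1.S in MO1 was lost without CoMO replicate 2, MO1 replicate 1 or MO1 replicate 2 (adjusted p up to 0.083), and that of herpud1.L in MO2+MO3 without any 1 of the 4 arrays it compares (up to 0.23).

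herpud2.L (gene 379247), a paralogue of herpud1, was called lower in MO1 by -0.38 ± 0.10 (adjusted p = 0.21 without the block and 0.036 with it) and had -0.20 ± 0.10 in MO2+MO3 (0.22 with the block). EDEM1, a lectin that takes misfolded glycoproteins to degradation, was called higher in MO2+MO3 on probe set 1 of the 3 of edem1.L (gene 100049149). There the values were 0.11 and -0.34 in MO1 and 0.67 and -0.11 in MO2+MO3, against 0.11 and -0.69 in CoMO embryos, a difference of 0.57 ± 0.13 in MO2+MO3 (0.63 without the block and 0.02 with it). The groups overlapped across the replicates. Probe sets 2 and 3 had 0.36 ± 0.14 and 0.04 ± 0.10 and were not called, and both lay near the level of the negative controls. edem3.L had 0.04 in MO1 and 0.22 in MO2+MO3. The calls of herpud2.L and edem1.L were lost when any 1 of the 4 arrays compared was left out, with an adjusted p of up to 0.3 and 0.15.

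In the translocon the lower calls were on ssr3.S and ssr4.S of the TRAP complex and on sec61b.L and sec61g.L of the Sec61 channel. ssr3.S (gene 379415), the gamma subunit of TRAP, had stage 10.5 values of -0.03 and 0.03 in MO1 and -0.16 and -0.23 in MO2+MO3, against 0.33 and 0.55 in CoMO embryos. The 3 groups did not overlap, and both CoMO arrays were the highest. The difference was -0.44 ± 0.09 in MO1 (adjusted p = 0.2 without the block and 0.015 with it) and -0.63 ± 0.09 in MO2+MO3 (0.072 and 0.0032). Its partner ssr3.L had -0.13 ± 0.09 in MO1 and -0.16 ± 0.09 in MO2+MO3 and was not called. ssr4.S (gene 398633), the delta subunit, was called on its probe sets 2 and 3 in MO1 (-0.50 ± 0.11 and -0.67 ± 0.12, adjusted p = 0.71 and 0.49 without the block and 0.02 and 0.0061 with it) and on probe set 3 in MO2+MO3 (-0.45 ± 0.12, 0.72 without the block and 0.03 with it). Both probe sets lay near the level of the negative controls, and the brighter probe set 1 had -0.26 in MO1 and -0.18 in MO2+MO3 and was not called. The call of ssr3.S in MO2+MO3 held in all 8 alternatives with the block. In MO1 that of ssr3.S was lost without CoMO replicate 2, MO1 replicate 1 or MO1 replicate 2 (adjusted p up to 0.14), that of probe set 2 of ssr4.S without CoMO replicate 1, MO1 replicate 1 or MO1 replicate 2 (0.17), and that of its probe set 3 without MO1 replicate 2 (0.07). In MO2+MO3 probe set 3 was lost without CoMO replicate 2, MO2+MO3 replicate 1 or MO2+MO3 replicate 2 (0.25). The 5 probe sets of ssr1, ssr2 and ssr4.L lay between -0.35 and 0.25, with 0 called.

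sec61b.L (gene 379848), the beta subunit of the channel, had stage 10.5 values of -0.31 and 0.02 in MO1 and -0.28 and 0.03 in MO2+MO3, against -0.02 and 0.30 in CoMO embryos. Its differences of -0.29 ± 0.08 in MO1 (adjusted p = 0.64 without the block and 0.036 with it) and -0.26 ± 0.08 in MO2+MO3 (0.66 and 0.047) were about the size of the step between its replicates. sec61g.L (gene 394424), the gamma subunit, was called lower in MO2+MO3 on its probe set 2 (-0.35 ± 0.08, 0.52 and 0.019), while its dim probe set 1 had 0.11 and the dim sec61g.S had 0.25. The channel subunit sec61a1.S had -0.23 ± 0.09 in MO1 and -0.30 ± 0.09 in MO2+MO3, which was not called (0.13 and 0.061 with the block) except in MO2+MO3 with the block, without dim probe sets or with means over the probe sets of a gene. The calls of sec61b.L and sec61g.L were lost when any 1 of the 4 arrays compared was left out, with an adjusted p of up to 0.2 for sec61b.L in MO1, 0.21 in MO2+MO3 and 0.14 for sec61g.L.

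SEC62, which helps the channel take in small secretory proteins and is also a receptor for the removal of ER membrane by autophagy, went the other way in MO2+MO3. sec62.S (gene 446676) had stage 10.5 values of -0.16 and -0.31 in MO1 and 0.56 and 0.45 in MO2+MO3, against 0.11 and -0.11 in CoMO embryos. The 3 groups did not overlap, with MO2+MO3 above and MO1 below CoMO. The difference was 0.50 ± 0.08 in MO2+MO3 (adjusted p = 0.17 without the block and 0.0037 with it, called in all 8 alternatives with the block) and -0.24 ± 0.08 in MO1 (0.66 and 0.073), called with the block only without dim probe sets or with means over the probe sets of a gene. sec62.L had 0.18 ± 0.09 in MO2+MO3 and -0.15 ± 0.09 in MO1 and was not called. The sec63 probe sets, for the BiP-recruiting partner of SEC62, lay between -0.06 and 0.01 in both reagents, and the spcs probe sets of signal peptidase between -0.25 and 0.06.

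No chaperone was called. BiP, the main ER Hsp70 and a standard marker of ER stress, is measured by 2 probe sets of hspa5.L (gene 397850) and 1 of hspa5.S (gene 379756). On probe set 1 of hspa5.L the stage 10.5 values were -0.04 and 0.05 in MO1 and -0.03 and 0.03 in MO2+MO3, against -0.13 and 0.11 in CoMO embryos, so the groups overlapped. The difference was 0.01 ± 0.09 in each reagent, and its 95% interval with the block ran between -0.20 and 0.23 for MO1 and between -0.21 and 0.22 for MO2+MO3. On probe set 2 the differences were -0.04 ± 0.09 in MO1 and 0.01 ± 0.09 in MO2+MO3, and for hspa5.S they were -0.27 ± 0.14 (interval -0.59 to 0.04) and -0.02 ± 0.14 (interval -0.34 to 0.29).

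GRP94, the ER Hsp90, differed by -0.04 ± 0.08 in MO1 and -0.06 ± 0.08 in MO2+MO3 on hsp90b1.L (gene 399408). On hsp90b1.S (gene 398753) the values were -0.67 and -0.16 in MO1 and 0.21 and 0.00 in MO2+MO3, against 0.00 and 0.00 in CoMO embryos, and the difference of -0.42 ± 0.17 in MO1 was not called (adjusted p = 0.45 without the block and 0.14 with it). Calreticulin had 0.21 ± 0.08 in MO1 and 0.09 ± 0.08 in MO2+MO3 on calr.L, and between -0.08 and 0.07 on the 2 probe sets of calr.S. Calnexin lay between -0.10 and 0.10 on the 3 probe sets of canx.L and canx.S in both reagents. The intervals do not exclude small changes: that of calr.L in MO1 with the block was 0.02 to 0.40, with an adjusted p of 0.14. The chaperone nearest the threshold in MO1 was dnajb11.S, an Hsp40 partner of BiP, at -0.37 ± 0.12 (adjusted p = 0.065 with the block), and in MO2+MO3 sdf2l1.L, which works with those partners, at -0.34 ± 0.11 (0.06). The 6 probe sets of dnajb9, dnajc3, hyou1, dnajb11.L and sdf2l1.S lay between -0.31 and 0.11. Under some alternatives with the block a chaperone was called: hspa5.S in MO1 without CoMO replicate 1, hsp90b1.S in MO1 without MO1 replicate 2, dnajb11.S in MO1 with the 6 arrays of the stage or without dim probe sets, and sdf2l1 in MO2+MO3 without dim probe sets or with means over the probe sets of a gene.

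The disulfide isomerases did not move together. pdia4.L (gene 495169), which codes for ERp72, had stage 10.5 values of -0.37 and -0.09 in MO1 and -0.06 and 0.06 in MO2+MO3, against 0.30 and 0.71 in CoMO embryos. Both CoMO arrays lay above all 4 others. Its difference was -0.74 ± 0.16 in MO1 (adjusted p = 0.2 without the block and 0.016 with it) and -0.51 ± 0.16 in MO2+MO3 (0.42 and 0.066), which was not called except with the block in the 6 arrays of the stage alone or without dim probe sets. The copies of pdia6 differed: pdia6.S (gene 379997) was called higher in MO1 (0.60 ± 0.09, 0.75 and 0.0035) with -0.10 ± 0.09 in MO2+MO3, and pdia6.L (gene 446478) was called lower in MO2+MO3 (-0.38 ± 0.08, 0.36 and 0.014) with -0.08 ± 0.08 in MO1. pdia3.S, pdia5.L and pdia2.L, the last near the level of the negative controls, lay between -0.14 and 0.07 in both reagents. With the block, the calls of pdia4.L and pdia6.L were lost when any 1 of the 4 arrays compared was left out (adjusted p up to 0.13 and 0.11), and that of pdia6.S without MO1 replicate 1 (0.05).

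Of the transcription factors, xbp1.L (gene 380215), which drives ER chaperone and degradation genes once its RNA is spliced by IRE1, was called in MO1. Its stage 10.5 values were -0.39 and -0.30 in MO1 and 0.00 and 0.00 in MO2+MO3, against 0.28 and 0.37 in CoMO embryos. The groups did not overlap, with CoMO on top and MO1 at the bottom. The difference was -0.67 ± 0.10 in MO1 (adjusted p = 0.29 without the block and 0.0036 with it, called in all 8 alternatives with the block) and -0.33 ± 0.10 in MO2+MO3 (0.73 and 0.064), called with the block only without dim probe sets. The array gives 1 value for xbp1.L and none for its spliced form. atf4.L (gene 398804) had 0.21 ± 0.11 in MO1 and 0.32 ± 0.11 in MO2+MO3 and was not called (0.27 and 0.088 with the block). atf6.S (gene 496056), near the level of the negative controls, had 0.25 ± 0.17 and 0.18 ± 0.17 and was not called either.

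The reagents were also compared with each other, a difference whose means hold no CoMO array, although the CoMO arrays enter the variance and the block of the fit. At stage 10.5 the fit without the block called 0 members between MO1 and MO2+MO3, where 0.55% of all probe sets were called. The smallest adjusted p was 0.075. An unadjusted p under 0.05 was found for 7 members, or 10.3%, against 8.22% of all probe sets. With the block 8 members were called, or 11.8% against 9.75% of all probe sets. Of these, 7 (10.3%) were higher in MO1 than in MO2+MO3 against 4.36% of all probe sets, and 1 (1.47%) was lower against 5.38%. Those higher were selenos.S (1.68 ± 0.27, adjusted p = 0.095 without the block and 0.0072 with it), selenos.L (1.40 ± 0.28, 1 and 0.017), derl1.L (0.96 ± 0.11, 0.098 and 0.0019), derl2.L (0.90 ± 0.11, 0.089 and 0.0019), pdia6.S (0.69 ± 0.09, 0.85 and 0.0031), and probe sets 1 and 4 of sel1l.L (0.67 ± 0.08 with 0.73 and 0.0025, and 0.60 ± 0.12 with 0.68 and 0.016). sec62.S was lower (-0.74 ± 0.08, 0.075 and 0.0012). In all, 6 of the 17 degradation probe sets were called higher in MO1 than in MO2+MO3, and for herpud1 no difference was called (-0.28 ± 0.12 for herpud1.L, interval -0.55 to -0.01, and 0.25 ± 0.12 for herpud1.S, interval -0.02 to 0.52, with the block). Without 1 array the calls of selenos.S (MO1 replicate 1 or MO2+MO3 replicate 1, adjusted p up to 0.079), selenos.L (MO1 replicate 2 or MO2+MO3 replicate 2, 0.13) and probe set 4 of sel1l.L (MO1 replicate 1, MO2+MO3 replicate 1 or MO2+MO3 replicate 2, 0.15) were lost, and the other 5 held in all 8 alternatives with the block.

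At stage 8 selenos.S and derl1.L already stood apart in MO2+MO3. selenos.S had values of 0.00 and 0.99 in MO1 and -1.42 and -1.71 in MO2+MO3, against 0.00 and 0.59 in CoMO embryos. derl1.L had 0.12 and 0.08 in MO1 and -0.56 and -0.99 in MO2+MO3, against 0.12 and -0.08 in CoMO embryos. For both genes the MO2+MO3 arrays lay below all 4 others. Between MO1 and MO2+MO3 both were called with the block, at 2.06 ± 0.27 for selenos.S (adjusted p = 0.29 without the block and 0.024 with it) and 0.87 ± 0.11 for derl1.L (0.77 and 0.024). Against CoMO neither was called: MO2+MO3 differed by -1.86 ± 0.27 for selenos.S (0.6 and 0.062) and by -0.79 ± 0.11 for derl1.L (1 and 0.055). selenos.L differed from CoMO by -1.37 ± 0.28 in MO2+MO3 (1 and 0.15). Each call between the reagents was lost without MO1 replicate 1, MO1 replicate 2 or MO2+MO3 replicate 2 of stage 8, which left 0 members called.

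Those 2 members were 2.94% of the 68. Between the reagents at stage 8 with the block, 0.381% of all probe sets were called, and 0.187% were higher in MO1. Without the block 0 members and 0.00615% of all probe sets were called. An unadjusted p under 0.05 was found for 8 members, or 11.8%, against 2.44% of all probe sets. At stage 8, 0 members were called in MO1 against CoMO in either fit. Of all probe sets 0.00615% were called without the block and 0.123% with it. Without the block 2 members (2.94%) had an unadjusted p under 0.05, against 1.93% of all probe sets. In MO2+MO3 against CoMO, 0 members were called in either fit, against 0% and 0.141% of all probe sets. Without the block 4 members (5.88%) had an unadjusted p under 0.05, against 2.34% of all probe sets. The members with the widest stage 8 differences in MO1 were hsp90b1.S, with values of -0.59 and -0.80 in MO1 and 0.21 and 0.28 in MO2+MO3, against -0.13 and 0.13 in CoMO embryos, and pdia6.S and spcs1.L, a signal peptidase subunit. The MO1 arrays of hsp90b1.S lay below the other 4, and its difference from CoMO was -0.69 ± 0.17 (1 and 0.29). spcs1.L differed from CoMO by -0.44 ± 0.11 in MO1 (1 and 0.32), and pdia6.S by 0.48 (0.15 with the block). These 3 were chosen after their values were seen.

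**Figure D4:**
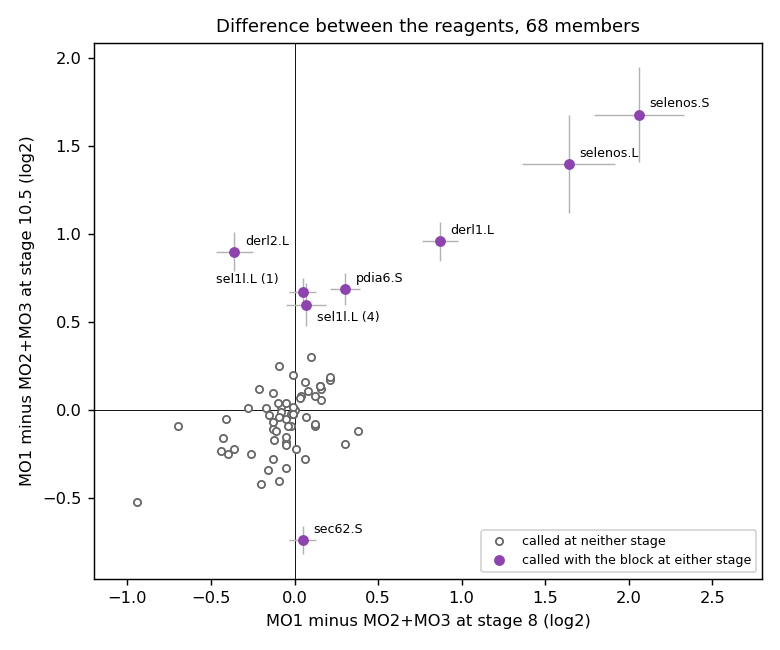
Log2 difference of MO1 minus MO2+MO3 at stage 8 (horizontal) against that at stage 10.5 (vertical) for the 68 member probe sets, which come from separate arrays; bars are 1 standard error of the fit with the block, drawn for members called at either stage. selenos.S, selenos.L and derl1.L lie at 0.87 or above at both stages. Of these, selenos.S and derl1.L are called at both stages. selenos.L, derl2.L, the called sel1l.L probe sets, pdia6.S and sec62.S are called at stage 10.5 alone.

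Whether a reagent's effect changed between the stages was tested in the same fits. Without the block 0 members were called for MO1 or MO2+MO3, where 0.0215% and 0.00922% of all probe sets were called. An unadjusted p under 0.05 was found for 0 and 4 members (0% and 5.88%), against 4.74% and 4.55% of all probe sets. With the block 3 members (4.41%) were called for MO1, all lower at stage 10.5, against 4.16% of all probe sets in either direction and 2.14% lower. For MO2+MO3 4 members (5.88%) were called, 3 lower (4.41%) and 1 higher (1.47%), against 3.84% of all probe sets in either direction, 1.38% lower and 2.46% higher. For MO1 the changes were -0.82 ± 0.17 for herpud1.L, -0.84 ± 0.16 for probe set 3 of ssr4.S and -0.67 ± 0.14 for xbp1.L. For MO2+MO3 they were -0.92 ± 0.15 for derl2.L, -0.91 ± 0.17 for herpud1.S, -0.60 ± 0.12 for probe set 1 of sel1l.L and 0.53 ± 0.11 for sec62.S. The MO2+MO3 difference of derl1.L was -0.79 at stage 8 and -0.97 at stage 10.5, and that of selenos.S -1.86 and -1.75, with 95% intervals of the change of -0.54 to 0.18 and -0.76 to 0.99. At stage 8 herpud1.S and probe set 3 of ssr4.S lay near the level of the negative controls, where a difference is harder to see. Leaving out any 1 of the 8 arrays compared lowered the count for MO1 and for MO2+MO3. The share of all probe sets called in those fits is not given here. Without CoMO replicate 1 of stage 10.5, the calls for MO2+MO3 included members other than the 4 reported. The changes of herpud1.L, sec62.S and probe set 1 of sel1l.L were lost whichever of the 8 arrays was left out, and those of herpud1.L and sec62.S also after quantile normalization.

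Among genes of the same pathways outside the naming rule, more probe sets were called lower than higher at stage 10.5 with the block. The exceptions were degradation in MO1, with 5 lower and 8 higher, and unfolded protein response signalling in MO2+MO3, with 0 called. These lists too were chosen with earlier results of these data known. The counts of the lists stand beside 7.75% of all probe sets lower and 8.48% higher in MO1, and 7.77% lower and 9.02% higher in MO2+MO3. Of 18 probe sets for other genes of unfolded protein response signalling, 4 were called lower and 0 higher in MO1 with the block, and 0 in MO2+MO3. The 4 were ppp1r15b.L, which codes for a constitutive partner of the eIF2α phosphatase, at -1.13 ± 0.10 (adjusted p = 0.11 without the block and 4.1e-04 with it), eif2ak3.S, which codes for PERK, at -0.50 ± 0.14 (0.28 and 0.046), ddit3.L, the transcription factor CHOP, at -0.43 ± 0.12 (0.73 and 0.048), and the transcription factor creb3.S at -0.39 ± 0.10 (0.97 and 0.036). In MO2+MO3 ppp1r15b.L had 0.06 ± 0.10, eif2ak3.S 0.05 ± 0.14, ddit3.L -0.32 ± 0.12 and creb3.S -0.19 ± 0.10.

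Of 54 probe sets for other genes of oxidative folding and glycoprotein quality control, 7 were lower and 1 higher in MO1, and 8 lower and 2 higher in MO2+MO3. The thioredoxin-like membrane protein tmx4.L had -0.90 ± 0.13 in MO1 (adjusted p = 0.2 without the block and 0.0027 with it) and -0.31 ± 0.13 in MO2+MO3. The prolyl isomerase fkbp2.L had -0.50 ± 0.12 in MO1 (0.51 without the block and 0.023 with it) and -0.57 ± 0.12 in MO2+MO3 (0.42 and 0.014) on 1 of its 2 probe sets. agr2.S, a disulfide isomerase of secretory epithelia, had -0.55 ± 0.16 in MO1 (0.28 and 0.049) and -0.53 ± 0.16 in MO2+MO3 (0.3 and 0.053), and the Hsp40 gene dnajb14.S was higher, at 0.43 ± 0.12 in MO1 (0.83 and 0.04) and 0.67 ± 0.12 in MO2+MO3 (0.56 and 0.0067).

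Of 52 probe sets for other genes of ER-associated degradation, 5 were lower and 8 higher in MO1, and 6 lower and 3 higher in MO2+MO3. This list held the only calls without the block among the 4 pathway lists. erlin2.L, a scaffold that hands membrane proteins to a ubiquitin ligase, had -0.96 ± 0.09 in MO1 (adjusted p = 0.02 without the block) and -0.14 ± 0.09 in MO2+MO3, and also differed between the reagents (-0.81 ± 0.09, 0.047). The ubiquitin ligase marchf6.L had 0.97 ± 0.12 in MO1 (0.022 without the block) and 0.54 ± 0.12 in MO2+MO3 (0.13 without the block and 0.019 with it) on 1 of 3 probe sets. The other 2 of marchf6.L had 0.65 (0.0026 with the block, called) and 0.45 (0.078) in MO1, and -0.03 and -0.12 in MO2+MO3, neither called. The ligase rnf185.S had 0.57 ± 0.08 in MO1 (0.47 without the block and 0.0021 with it) and 0.68 ± 0.08 in MO2+MO3 (0.34 and 0.0011), and tmub1.S, which codes for a ubiquitin-like membrane protein, had -0.47 ± 0.11 in MO1 (0.2 and 0.025) and -0.50 ± 0.11 in MO2+MO3 (0.17 and 0.019).

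Of 54 probe sets for targeting to and insertion into the ER membrane, 8 were lower and 1 higher in MO1, and 7 lower and 2 higher in MO2+MO3. srp19.L, a subunit of the signal recognition particle, had -0.71 ± 0.08 in MO1 (adjusted p = 0.51 without the block and 0.0012 with it) and -0.43 ± 0.08 in MO2+MO3 (0.78 and 0.0091) on 1 of 2 probe sets. emc4.L, a subunit of the ER membrane insertion complex, had -0.51 ± 0.10 in MO1 (0.64 and 0.0094) and -0.70 ± 0.10 in MO2+MO3 (0.41 and 0.0025) on 1 of 3. tram2.L, which codes for a translocon-associated protein, had -0.71 ± 0.11 in MO2+MO3 on 1 of 2 (0.074 and 0.0036), and get1.S, of the pathway that inserts tail-anchored proteins, had -0.62 ± 0.09 in MO2+MO3 (0.84 and 0.0036). The other probe sets of srp19.L, emc4.L, tram2.L and fkbp2.L were not called.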

How the data were processed

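The authors deposited 1 table of log2 values per probe set for 12 Affymetrix arrays, which the submitters' processing notes trace to RMA, with no version. No source used here states the log base or the centring of each probe set to a median of 0 within a stage, which was found in the values (medians within 1e-06 of 0). No aligner, build or scanner file was used. Tests covered 32539 probe sets, without the 96 controls. In GEO's platform annotation 15495 of these have 1 gene symbol, 279 have several and 16765 are unnamed. The 68 member probe sets all matched the RefSeq gene table of Xenopus_laevis_v10.1. Probe sets can bind both copies of a gene, so values of the copies may not be separate.

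All 12 arrays entered 1 linear model with a coefficient for each group (limma 3.58.1, R 4.3.3), and the p-values of limma's moderated test (eBayes, two-sided) were adjusted after Benjamini and Hochberg over the 32539 probe sets, separately for each contrast. The number of arrays limits the precision. Replicate numbers come from the labels, which do not say what a number shares. For arrays of the same number, the correlation of the deviations from the group mean was 0.821 to 0.864 over 6 pairs of groups within a stage and -0.0164 to 0.0244 between stages, so the fit was repeated with the number within each stage as a block (4 residual degrees of freedom, against 6 without). The p-values without the block rest on the spread between the arrays of a group. Those with the block rest on what is left of it once the shift shared by same-numbered arrays is taken out. Dim probe sets were those whose median, from the power-of-2 interval recovered from the rounding of the deposited values, was not shown to exceed 4, the bound under which all 6 TrpnX negative controls fell.

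The members and the pathway and marker lists were chosen with earlier results of these data known. Members were named if listed at the outset, called with the block (up to 12 per contrast with CoMO, up to 6 per other contrast), or main chaperones or sensors, with their other copies and probe sets, and up to 4 called genes per list. Alternatives were other arrays in the fit, quantile normalization, a robust prior, no dim probe sets, means over a gene's probe sets and leaving out arrays. Sequences were not used here.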

Additional observations from a re-analysis of the deposited data

Results flagged for a closer look

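A reagent's difference from CoMO changed between stage 8 and stage 10.5 in 7 cases by the test of the change itself in limma with the replicate block, and in none of them without it. Members called were 4.41% for MO1 and 5.88% for MO2+MO3, against 4.16% and 3.84% of all probe sets. Leaving out any 1 array compared lowered both counts. For MO1 the change (stage 10.5 minus stage 8) was -0.82 for herpud1.L (adjusted p = 0.035 with the block and 1 without it), -0.84 for probe set 3 of ssr4.S (0.029 and 1) and -0.67 for xbp1.L (0.042 and 1). For MO2+MO3 it was -0.92 for derl2.L (0.017 and 0.68), -0.91 for herpud1.S (0.027 and 1), 0.53 for sec62.S (0.036 and 0.97) and -0.60 for probe set 1 of sel1l.L (0.034 and 1). Probe set 3 of ssr4.S lay near the level of the negative controls at both stages, and herpud1.S did so at stage 8.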

How the results depend on the processing

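Without the block, every setting run called 0 members in all 8 comparisons. With the replicate block the count was 11 for MO1 and 16 for MO2+MO3 against CoMO at stage 10.5, 8 between the reagents at stage 10.5 and 2 at stage 8, 3 and 4 for the change of the MO1 and MO2+MO3 effects, and 0 for either reagent against CoMO at stage 8. Leaving out single arrays with the block gave 3 to 7 members for MO1 and 9 to 10 for MO2+MO3 at stage 10.5, 0 to 1 for MO2+MO3 and 0 to 2 between the reagents at stage 8, and 0 to 1 and 0 to 3 for the changes of the MO1 and MO2+MO3 effects. At stage 8 with the block, settings chosen after seeing the data called 1 member for MO2+MO3 after quantile normalization (selenos.S), 2 without dim probe sets (selenos.S and derl1.L) and 1 with means over the probe sets of a gene (derl1.L). Between the reagents they called 1 with the 6 arrays of the stage (selenos.L, not the 2 reported), 6 without dim probe sets and 5 with means. The share of all probe sets called under these stage 8 settings was not taken. Between the reagents at stage 10.5, leaving out dim probe sets raised that share from 9.75% to 19%. The share of the members rose from 11.8% to 20.3%. At stage 10.5 with the block, fitting only the 6 arrays of the stage ended the calls of herpud2.L, sec61b.L and syvn1.S in MO1, of sec61b.L, syvn1.L and probe set 3 of ssr4.S in MO2+MO3, and of selenos.L and probe set 4 of sel1l.L between the reagents. Quantile normalization ended those of sec61b.L, syvn1.S and probe set 2 of ssr4.S in MO1, and of herpud1.L, sec61b.L, syvn1.L and probe set 3 of ssr4.S in MO2+MO3. Between the reagents at stage 10.5, settings with the block also called sec62.L and pdia6.L (quantile normalization, no dim probe sets, means), dnajb9.L (no dim probe sets, without MO1 replicate 1), xbp1.L (no dim probe sets) and hsp90b1.S (without MO1 replicate 2). Another fit had no block and lacked CoMO replicate 2 of stage 10.5. Its MO2+MO3 difference was 0.08 for herpud1.L and 0.01 for probe set 3 of ssr4.S. It sets both MO2+MO3 replicates against CoMO replicate 1 alone, so the step between replicates enters the difference. Over the alternatives with the block these differences ran from -0.61 to -0.33 and from -0.66 to -0.24. With 2 arrays per group, changes smaller than the intervals given could not be seen. The cause of the shifts was not tested.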
